A study of Mus musculus with 2 samples.

Results

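The 10 genes described here are Ucp1, Cidea, Elovl3, Dio2, Prdm16, Adrb3, Ppargc1a, Cox8b, Cox7a1 and Fabp3, a set known for its part in heat production by brown fat. They were taken by gene symbol from a table of 35602 symbols, and all 10 were found. The set was selected on the count ratios between these same 2 libraries, so its values are given as a description. The material was mouse tissue labelled as breast tumour. One library (here the inhibitor library) stands for treatment with an intraperitoneally injected PD-1 inhibitor, the other (here the acupuncture library) for that injection plus acupuncture, so the inhibitor is common to both. PD-1 is the receptor through which activated T cells are restrained. The sources used here give no strain, age, tumour line, acupuncture points or number of mice. Each group is 1 messenger RNA library, without replicates. The design asks what differs in tumour RNA when acupuncture accompanies the inhibitor.

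Brown adipocytes burn fatty acids in densely packed mitochondria and release the energy as heat. The uncoupling protein UCP1 lets protons return across the inner mitochondrial membrane without making ATP. Noradrenaline from sympathetic nerves switches the process on through beta-adrenergic receptors and cyclic AMP. The mouse mammary gland lies in subcutaneous fat, a depot in which UCP1-positive adipocytes can appear among white ones. Several proteins of the brown fat programme also serve the oxidative metabolism of heart and skeletal muscle. On that textbook basis Ppargc1a, Cox8b, Cox7a1 and Fabp3 were classed as shared with skeletal muscle, and the other 6 were not.

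Stretches of 250 bases upstream of the transcription start are shown for 4 members. Ucp1 had the largest ratio between the libraries, Dio2 was the only member at a lower level with acupuncture, and Ppargc1a and Cox8b stand for the regulators and for the genes shared with muscle. The sequences are those of RefSeq on GRCm38.p6, whose table matched 7 of the 10 members. The counts carry the build names GRCm39 and mm39, so the coordinates given here are not those of the counted genes. Each run is written 5′ to 3′ in the sense of the gene and ends at the base before the start. Capitals mark matches on either strand to TGACG, the half-site of the cyclic AMP response element, to its palindrome TGACGTCA, to AGGTCA, a half-site of nuclear receptors, and to TATAAA, the TATA box.
Ucp1, chr8:83290098-83290347, plus strand: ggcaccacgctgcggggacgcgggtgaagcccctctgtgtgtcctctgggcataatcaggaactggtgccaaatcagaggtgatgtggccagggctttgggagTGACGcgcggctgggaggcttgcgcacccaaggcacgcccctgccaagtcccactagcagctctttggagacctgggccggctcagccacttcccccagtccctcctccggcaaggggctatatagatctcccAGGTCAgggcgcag
Dio2, chr12:90739039-90739288, minus strand: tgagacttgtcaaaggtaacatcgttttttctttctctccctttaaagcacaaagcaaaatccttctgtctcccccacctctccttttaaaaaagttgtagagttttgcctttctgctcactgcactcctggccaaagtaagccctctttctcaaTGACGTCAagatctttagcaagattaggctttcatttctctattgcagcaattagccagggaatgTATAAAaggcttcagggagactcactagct
Ppargc1a, chr5:51567726-51567975, minus strand: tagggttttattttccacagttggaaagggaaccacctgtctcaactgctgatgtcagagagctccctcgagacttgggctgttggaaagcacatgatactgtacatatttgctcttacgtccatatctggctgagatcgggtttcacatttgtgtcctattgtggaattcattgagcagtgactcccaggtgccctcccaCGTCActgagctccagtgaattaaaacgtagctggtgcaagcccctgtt
Cox8b, chr7:140900447-140900696, minus strand: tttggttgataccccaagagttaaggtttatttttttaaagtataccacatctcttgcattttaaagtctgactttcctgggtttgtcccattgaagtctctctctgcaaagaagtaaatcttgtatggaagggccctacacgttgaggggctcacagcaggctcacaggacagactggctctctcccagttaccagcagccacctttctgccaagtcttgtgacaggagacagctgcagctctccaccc

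The Dio2 window held the palindrome TGACGTCA 95 bases before the start and TATAAA 30 bases before it. Among the members' windows, that of Dio2 alone was not found to run into an annotated transcript (GENCODE) of its gene, so its start is less certain. The palindrome was present in 1.56% and TATAAA in 12.4% of 32292 such windows of the symbols in the table. The palindrome contains TGACG on both strands, so the 2 half-site matches in Dio2 are this same stretch. Ucp1 held TGACG 147 bases and AGGTCA 14 bases before the start. Ppargc1a held CGTCA, the reverse complement of TGACG, 49 bases before it, and Fabp3, not printed, held TGACG 149 bases before it. TGACG stood in 17.9% of all windows and AGGTCA in 14.0%. In Cox8b, Cox7a1 and Prdm16 none of these motifs were found in the window. CANNTG, the E-box that myogenic factors among others recognise, was present 6 times in Ppargc1a, once each in Cox8b, Cox7a1 and Fabp3, and in no window of Ucp1, Dio2 or Prdm16, against 66.2% of all windows. These matches describe letters only.

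Total counts came to 105728292 in the inhibitor library and 60752043 in the acupuncture library. Levels are counts per 1000000 (CPM) of library sizes scaled with edgeR's TMM factors. A ratio divides the level in the acupuncture library by that in the inhibitor library, and its exact 95% interval treats the gene's pooled counts as a binomial draw. Log2 ratios carry a prior count of 2 and so differ from the log2 of the printed ratio where counts are few. Genes are called higher or lower at a 2-fold or larger difference whose interval excluded 1. Only the 18687 genes with 20 or more counts over both libraries were tested in this way. The intervals hold counting error only, since each group has 1 library. PCR copies cannot be told from separate molecules here, so the intervals may be too narrow even for counting error. No test between the groups was possible, and every comparison below is between 2 libraries. In bulk tissue, fewer cells of a type and less RNA per cell cannot be told apart.

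Of the 10 members 9 were higher in the acupuncture library, none was lower and Dio2 lay between the limits. Over all tested genes 9.21% were higher and 4.9% lower. The members were chosen with this comparison in view, so nothing is read from their count. Their median log2 ratio was 3.18, against 0.0003 over all tested genes, and their ratios ran from -0.58 to 8.09. At the prior count of 2, Ucp1 and Cidea stood apart from the rest by their log2 ratios. With a prior of 0.5 Elovl3, at 0 counts in the inhibitor library, reached 6.73 against 7.16 for Cidea. At the prior of 2 the log2 ratios of the 4 genes shared with muscle lay between 2.22 and 3.32.

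**Figure D1:**
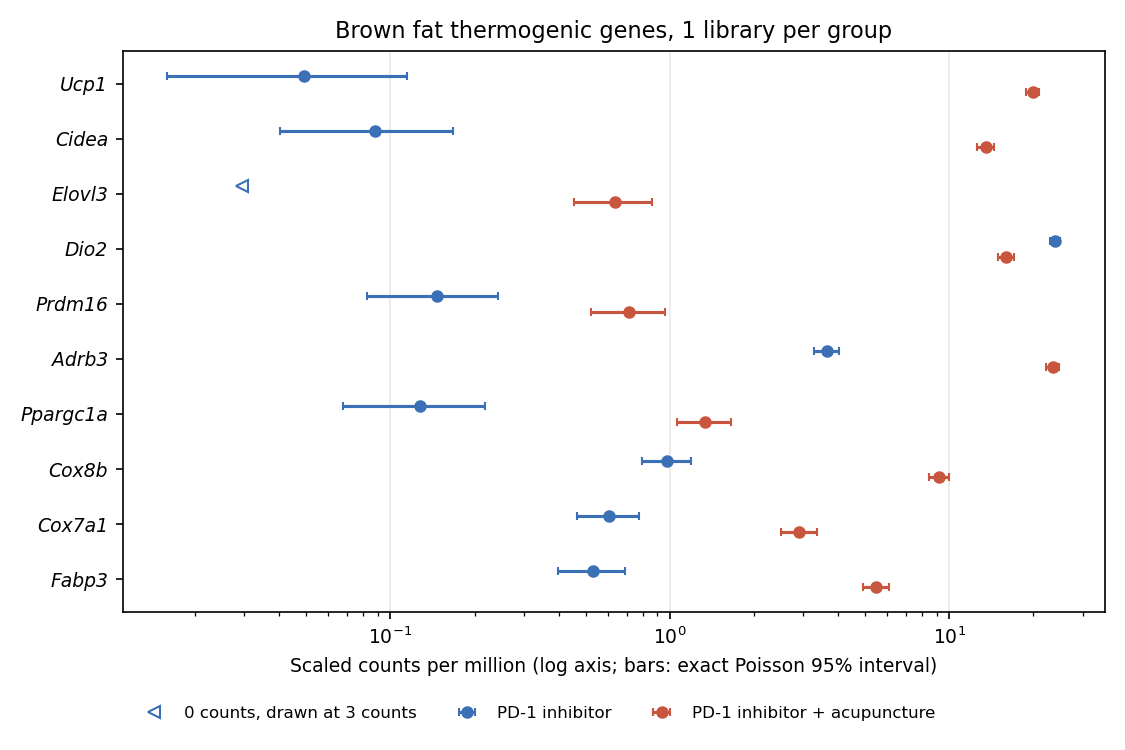
Scaled CPM on a log axis for the 10 members, with 1 point per library (blue, PD-1 inhibitor; red, PD-1 inhibitor with acupuncture) and bars for the exact Poisson 95% interval. The red point lies to the right of the blue one for 9 members and to the left for Dio2, and Elovl3 had 0 counts in the inhibitor library, drawn at 3 counts.

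Ucp1, the uncoupling protein itself, had 5 counts in the inhibitor library and 1251 with acupuncture. Its level was 0.0490 CPM (Poisson 95% interval 0.0159 to 0.114) and 19.9 CPM (18.8 to 21.0), a 406-fold ratio (173 to 1252). It was nearly undetected in the first library and had the second highest log2 ratio of the 18687 tested genes in the comparison. Cidea, a protein that enlarges lipid droplets and is abundant in brown fat, had 9 and 848 counts. Its level was 0.0882 CPM (0.0403 to 0.167) and 13.5 CPM (12.6 to 14.4), a 153-fold ratio (80.2 to 335), in the sixth place. Elovl3, which elongates very long fatty acids and is induced by cold in brown fat, had 0 and 40 counts. Taken against a floor of 3 counts (0.0294 CPM), it was at least 21.6-fold higher at 0.636 CPM (0.454 to 0.866). This bound leaves out the counting error of the 40 counts, and the exact interval of the ratio begins at 16.8.

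Cidea and Elovl3 are also known from sebaceous glands, and Cidea from the lactating mammary gland. Of 9 sebaceous genes 5 could be called, and 2 of these were higher and none lower. These were the melanocortin receptor Mc5r, at 28 and 76 counts (4.40-fold, 2.82 to 7.06), and the keratin Krt79, at 13 and 31 counts (3.87-fold, 1.97 to 8.06). The wax synthesis genes Awat1 and Dgat2l6 were at 0 in both libraries, Awat2 stood at 0.945 times its level in the inhibitor library (0.642 to 1.38), and the summed level of the list was 10.9 and 13.0 CPM. Of 7 milk genes 5 could be called, and 3 of these were lower and none higher. These were the casein Csn2 and the lactose synthase subunit Lalba, at 20 and 23 counts in the inhibitor library and 0 with acupuncture, and the milk fat protein Btn1a1, at 52 and 6 counts (5.34-fold lower, 2.30 to 15.2). The casein Csn1s1, at 15 and 0 counts, was under the minimum for a call. The summed level of the list was 181 and 185 CPM, most of it Xdh. Of 8 epidermal genes 4 could be called, with none higher and the basal keratin Krt5 lower at 104 and 10 counts. The part of these tissues in the Cidea and Elovl3 values was not tested.

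The regulators Ppargc1a and Prdm16 both had few counts and were higher in the acupuncture library. Ppargc1a encodes PGC-1 alpha, the coactivator that drives mitochondrial biogenesis in brown fat and in oxidative muscle. It had 13 and 84 counts, at 0.127 CPM (0.0678 to 0.218) and 1.34 CPM (1.06 to 1.65), a 10.5-fold ratio (5.81 to 20.5). Prdm16, a transcription factor that directs precursors toward brown fat and is also present in many other tissues, had 15 and 45 counts. Its level was 0.147 CPM (0.0822 to 0.242) and 0.715 CPM (0.522 to 0.957), a 4.87-fold ratio (2.66 to 9.40). The intervals of the 2 libraries did not overlap for either gene.

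The members that act upstream, a receptor and a hormone-activating enzyme, differed in direction. Adrb3, the beta-3 adrenergic receptor of white and brown adipocytes, had 372 and 1475 counts. Its level was 3.64 CPM (3.28 to 4.03) and 23.4 CPM (22.3 to 24.7), a 6.43-fold ratio (5.74 to 7.23). Dio2, the deiodinase that makes active thyroid hormone inside the cell, had 2444 and 1004 counts. Its level was 23.9 CPM (23.0 to 24.9) and 16.0 CPM (15.0 to 17.0), which is 1.50-fold lower with acupuncture (1.39 to 1.62). Dio2 is also made outside fat, and it supplied 79.5% of the members' summed counts in the inhibitor library (exact 95% binomial interval 78.0 to 80.9) and 17.1% with acupuncture (16.2 to 18.1). The summed level of the 10 members was 3.09-fold higher (2.96 to 3.23), a log2 ratio of 1.63, and reached a log2 ratio of 3.64 without Dio2, a sum chosen after its share was seen. With the tumour epithelium list set to a median of 0, the log2 ratio of Dio2 was -0.09 in place of -0.58.

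The genes shared with muscle were all higher, Cox7a1 by less than Cox8b and Fabp3. Cox8b, a subunit of cytochrome c oxidase made in heart, skeletal muscle and brown fat, had 100 and 580 counts. Its level was 0.980 CPM (0.797 to 1.19) and 9.22 CPM (8.48 to 10), a 9.41-fold ratio (7.60 to 11.8). Cox7a1, another such subunit, had 62 and 183 counts, at 0.607 CPM (0.466 to 0.779) and 2.91 CPM (2.50 to 3.36), a 4.79-fold ratio (3.57 to 6.50). Fabp3, the fatty acid carrier of heart and oxidative muscle and also of brown fat, had 54 and 345 counts. Its level was 0.529 CPM (0.397 to 0.690) and 5.48 CPM (4.92 to 6.09), a 10.4-fold ratio (7.76 to 14.1). The libraries' intervals did not overlap for any of these genes, and the interval of the Cox7a1 ratio lay below those of Cox8b and Fabp3.

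Levels can be compared between members only per length, for which the merged exons of GENCODE M21 were used. With the PD-1 inhibitor alone Dio2 came first, at 4.12 CPM per kilobase, and Cox8b followed at 2.72. Adrb3 (1.26) and Cox7a1 (1.14) had overlapping intervals, Fabp3 stood at 0.643, and Cidea, Ucp1, Ppargc1a, Prdm16 and Elovl3 ended the order at 0.0791 or less, each overlapping its neighbour. With acupuncture Cox8b led at 25.6 CPM per kilobase. Ucp1 (12.2) and Cidea (12.1) overlapped in the next places, ahead of Adrb3 at 8.10. Fabp3 (6.66) and Cox7a1 (5.44) overlapped, and Dio2 had moved to the seventh place at 2.74. Elovl3 (0.322) overlapped Ppargc1a (0.207), and Prdm16 was last at 0.0831.

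The members were next set beside their paralogs, the related genes of the same family. In each of the 10 families the member had the highest log2 ratio among the listed genes with at least 20 combined counts, Dio2 included, since Dio3 lay below it. The members were selected on these same ratios, so nothing is read from this order. In the families of Cidea, Dio2, Prdm16, Adrb3 and Cox8b only a single other listed gene reached that count. Ucp2, the widely expressed uncoupling protein, stood at 358 and 305 CPM, 0.853 times its level in the inhibitor library (0.839 to 0.868), while Ucp3, the form of skeletal muscle and brown fat, was 11.0-fold higher (8.42 to 14.7) at 61 and 415 counts. Cidec, a droplet protein of adipocytes, was 3.02-fold higher (2.89 to 3.16). Counts of Cidea per 1000 counts of Cidec went from 3.04 to 154. Elovl1, Elovl5, Elovl6 and Elovl7 stood at 0.781 to 1.28 times their levels in the inhibitor library. Mecom, the closest relative of Prdm16, stood at 0.891 times its level (0.787 to 1.01). Of the other deiodinases, Dio1 was at 0 counts in both libraries, where the floor of 3 counts is 0.0294 and 0.0477 CPM. The inactivating enzyme Dio3 was 2.24-fold lower with acupuncture (1.68 to 3.01) at 225 and 62 counts.

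Adrb1, the beta-1 receptor best known from the heart, had 25 and 27 counts and a ratio of 1.75 (0.979 to 3.15). Ppargc1b, which shares much of the function of Ppargc1a, was at 1.86 times its level (1.65 to 2.10), and Pprc1 at 1.15 times (1.11 to 1.19). Fabp4, the main adipocyte form, had a ratio of 4.87 (4.78 to 4.95), and Fabp5 stood at 1.23 times its level (1.18 to 1.28).

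Cytochrome c oxidase, the last complex of the respiratory chain, has tissue forms of some subunits beside general ones. Cox8a, the form found in nearly all cells, stood at 190 and 156 CPM, 0.821 times its level in the inhibitor library (0.801 to 0.841). Counts of Cox8b per 1000 counts of Cox8a were 5.17 in the inhibitor library and 59.2 with acupuncture, 11.5 times as many (9.24 to 14.3). Cox7a2, the general counterpart of Cox7a1, stood at 0.873 times its level (0.844 to 0.904). Counts of Cox7a1 per 1000 counts of Cox7a2 were 6.65 and 36.4, 5.48 times as many (4.08 to 7.45). None of 11 widely expressed subunits was called higher or lower, and their ratios ran from 0.665 to 0.984. With the epithelium list set to a median of 0 Cox8a, Cox7a2, Ucp2 and Mecom passed to ratios above 1, at 1.15, 1.23, 1.20 and 1.25, and only 2 of the 11 subunits stayed below 1. Cox6a2, a tissue form that is on the skeletal muscle list, was 8.52-fold higher (7.02 to 10.4). Counts of Cox8b per count of Cox6a2 differed by a ratio of 1.10 (0.821 to 1.49), and per count of the muscle gene Ckm by 0.693 (0.556 to 0.870). Which tissue the Cox8b counts come from was not tested.

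**Figure D2:**
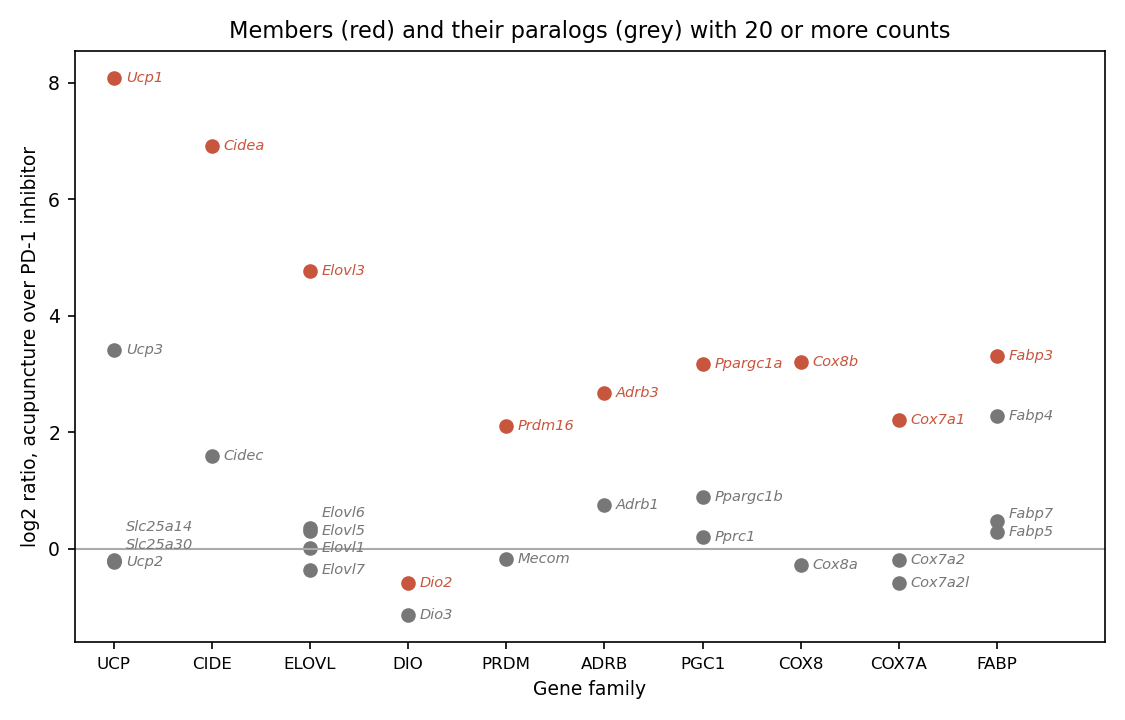
Log2 ratio (vertical axis, acupuncture over PD-1 inhibitor, 1 library each) of each member (red) and of its listed paralogs (grey) with at least 20 combined counts, by gene family along the horizontal axis. The member is the highest point of its family in all 10 families, from Ucp1 at 8.09 down to Dio2 at -0.58. The members were selected on these ratios, so nothing is read from this order.

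Other genes of the brown fat programme were higher in part. Of 20 on the list 19 could be called, and 11 of these were higher, 8 lay between and none was lower (median log2 ratio 1.95). Slc27a2, a fatty acid transporter and activating enzyme that liver and kidney also make, had 0 and 59 counts and was at least 31.9-fold higher against the same floor of 3 counts, with an exact interval that begins at 25.1. Plin5, which ties lipid droplets to mitochondria in oxidative tissues, had 15 and 228 counts, a 24.7-fold ratio (14.6 to 44.8). The potassium channel Kcnk3 had 32 and 190 counts (9.63-fold) and the proton channel Otop1 49 and 220 (7.28-fold). The transcription factors Ebf2 and Lhx8 had 222 and 532 (3.89-fold) and 20 and 82 (6.65-fold). The remaining higher genes were Ucp3 (11.0-fold), Ppara (5.64), Esrrg (5.49), Cpt1b (4.63) and S100b (3.76). Ucp3 and Cpt1b are also made in skeletal muscle, and genes shared with muscle were not separated within this list. Zic1, a transcription factor that marks the brown fat between the shoulder blades, was at 0 counts in both libraries, where the floor of 3 counts is 0.0294 and 0.0477 CPM. The more abundant Letmd1 and Gk stood at 1.26 and 1.85 times their levels in the inhibitor library, and Esrra, a nuclear receptor of mitochondrial genes, at 0.696 times (0.661 to 0.734). The other genes between the limits were Acot11 (1.99 times), Mpzl2 (1.29), Eva1a (1.29), Pank1 (1.14) and Hoxc9 (0.744). Kcnk3, Otop1, Ebf2, Lhx8 and Zic1 were named after their values were seen, as genes typical of brown adipocytes, so nothing is read from their direction.

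Genes described as beige adipocyte markers went both ways, with 2 of 7 higher, 2 lower and 3 between. The amino acid transporter Slc36a2 was 7.66-fold higher (6.80 to 8.66), and P2rx5, at 78 and 213 counts, was 4.43-fold higher (3.40 to 5.82). Cited1, a coregulator, was 8.59-fold lower (5.25 to 15.0) at 237 and 17 counts. Tnfrsf9, which activated T cells also carry as 4-1BB, was 2.69-fold lower (2.48 to 2.93).

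The steps from nerve to lipid breakdown were covered by 2 lists. Of 8 sympathetic nerve genes 3 could be called and none of these was higher or lower. Th and Dbh, the defining enzymes of noradrenaline synthesis, had 0 and 6 counts and 4 and 0 counts. The noradrenaline transporter Slc6a2 stood at 15.0 and 8.85 CPM, 0.588 times its level in the inhibitor library (0.533 to 0.649). Of 14 genes of adrenergic signalling and lipolysis 5 were higher, 9 lay between and none was lower (median log2 ratio 0.43). Plin1, the gatekeeper of the lipid droplet and also on the white adipocyte list below, was 4.54-fold higher (4.16 to 4.96). The triglyceride lipase Pnpla2 was 2.22-fold higher (2.15 to 2.29). The G protein subunit Gnas, the most abundant, stood at 0.972 times its level (0.960 to 0.985).

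Of 7 genes of the thyroid hormone axis 5 could be called, with 2 higher, 1 lower and 2 between. Thrsp, a lipogenic gene induced by thyroid hormone, was 8.33-fold higher (7.64 to 9.11), and the receptor Thrb was 4.02-fold higher (2.96 to 5.50). The receptor Thra stood at 0.724 times its level (0.695 to 0.754), and Dio3 was the lower gene.

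Fatty acid uptake and oxidation had 5 of 20 genes higher, 15 between and none lower (median log2 ratio 0.48). Lpl, which frees fatty acids from lipoproteins, was 4.90-fold higher (4.75 to 5.07) and the muscle and brown fat carnitine transferase Cpt1b 4.63-fold higher (4.09 to 5.25). Lpl is also on the white adipocyte list and Cpt1b on that of other brown fat genes, so these lists are not separate observations. The abundant beta-oxidation enzymes Acadl and Hadha stood at 1.39 and 1.11 times their levels. Of 10 genes of creatine and calcium cycling 8 could be called, with 2 higher and none lower. These were the muscle creatine kinase Ckmt2, 25.9-fold higher (17.8 to 39.1) at 29 and 463 counts, and the phosphatase Alpl, 2.14-fold higher (1.90 to 2.41). Of 10 secreted factors of brown fat 9 could be called, with 1 higher, 1 lower and a median of -0.08. Fgf21, a hormone of liver and fat, was 2.10-fold higher (1.19 to 3.73) at 24 and 31 counts. Vegfa, which tumour cells also make, was 2.22-fold lower (2.14 to 2.30).

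Fat, muscle and lymph node genes were mostly higher in the acupuncture library too. Of 20 white adipocyte genes 18 were higher, 2 lay between and none was lower, at a median log2 ratio of 2.13 and summed levels of 680 and 2558 CPM. Genes that brown adipocytes also make were not left out of this list, so it does not separate white from brown fat. Of 24 skeletal muscle genes that could be called 20 were higher, 2 lower and 2 between, at a median of 2.85 and summed levels of 423 and 2783 CPM. The 2 lower genes were the slow-fibre troponins Tnnt1 and Tnni1, and the slow myosin Myh7 had 6 counts in each library. Of 7 heart genes 5 could be called, with none higher and Tnnt2, a cardiac troponin, 2.71-fold lower (2.64 to 2.79). Tnnt2 held 28414 and 6454 of the list's 28975 and 6891 counts, while the heart genes Myh6 and Myl7 had 0 and 3 counts and 2 and 0 counts. The source of the Tnnt2 counts was not tested. Lymph node genes had 9 of 10 higher, none lower, a median of 3.98 and summed levels of 14.2 and 227 CPM. Among 10 tumour epithelium genes 2 were lower and none was higher (median -0.49), with the keratins Krt8 and Krt18 at 1564 and 1432 CPM in the inhibitor library and at 1060 and 988 CPM with acupuncture. The part of these tissues in the members' values was not tested beyond the ratios that follow.

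**Figure D3:**
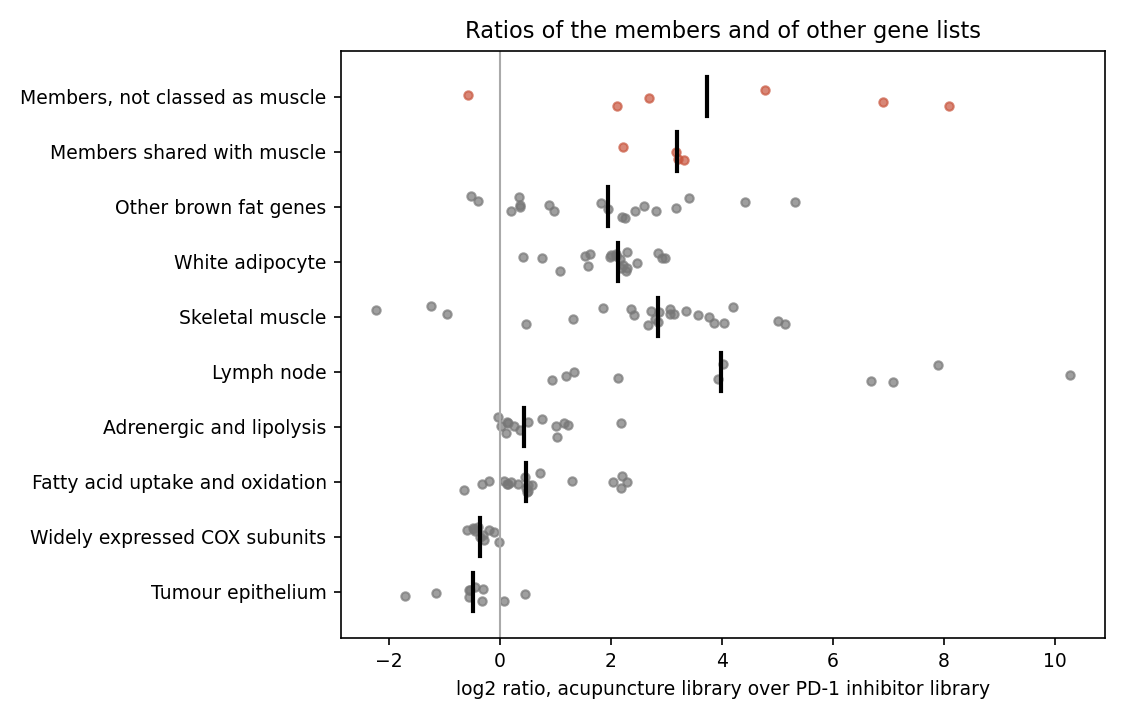
Log2 ratio (acupuncture over PD-1 inhibitor, 1 library each) of each gene with at least 20 combined counts, by list, with a black bar at the list's median. Ucp1 and Cidea, at 8.09 and 6.91, lie to the right of all white adipocyte and skeletal muscle genes, whose highest values are 2.98 and 5.13, and lymph node genes reach 10.27.

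Set against fat, the members formed 3 sets. The reference is the white adipocyte list, which holds general adipocyte genes, so these ratios do not set brown against white fat. The log2 ratios of 6 members lay above all 20 white adipocyte genes (0.41 to 2.98), namely Ucp1, Cidea, Elovl3, Fabp3, Cox8b and Ppargc1a. The ratio intervals of Fabp3, Cox8b and Ppargc1a include the 7.91-fold ratio of Gpd1, the highest of the white adipocyte genes, so these 3 are not separated from it beyond counting error, and with a prior count of 5 the log2 ratio of Ppargc1a was 2.89. Adrb3, Cox7a1 and Prdm16 lay within the range of the white adipocyte genes and Dio2 below it. Per 1000 counts of the white adipocyte list, Ucp1 counts were 0.0721 in the inhibitor library and 7.77 with acupuncture, 108 times as many (46.1 to 333). Cidea counts were 0.130 and 5.27 per 1000, 40.6 times as many (21.3 to 89.2), and Elovl3, against the floor of 3 counts, was at least 5.75 times as frequent, with an exact interval that begins at 4.46. Adrb3 was at 5.36 and 9.17 per 1000, a ratio of 1.71 (1.52 to 1.92), and Prdm16 at 0.216 and 0.280, a ratio of 1.29 (0.708 to 2.50). Dio2 was at 35.2 and 6.24 per 1000, 5.65-fold lower (5.24 to 6.09). Per 1000 counts of Adipoq alone, the adipocyte hormone adiponectin, Ucp1 counts were 2.45 and 251.

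Set against muscle, Ucp1 and Cidea exceeded all 24 skeletal muscle genes in their log2 ratio. The other 8 members, those shared with muscle and those not, lay within the muscle range of -2.23 to 5.13, so lying within it does not mark the shared genes. The place of Elovl3, with 0 counts in the inhibitor library, depends on the prior count. Its log2 ratio was 4.77 with the prior of 2, 6.73 with a prior of 0.5 and 3.52 with a prior of 5. Per 1000 counts of the muscle list, Cox8b was at 2.32 and 3.31, a ratio of 1.43 (1.15 to 1.79), and Fabp3 at 1.25 and 1.97, a ratio of 1.57 (1.18 to 2.14). Ppargc1a had a ratio of 1.59 (0.882 to 3.11), and Cox7a1 was 1.38-fold lower (1.01 to 1.84) at 1.44 and 1.04 per 1000. The same 4 genes summed had a ratio of 1.28 per muscle count (1.11 to 1.48) and of 2.24 per white adipocyte count (1.95 to 2.60). Cox7a1 alone had a ratio of 1.27 per white adipocyte count, with an interval (0.949 to 1.73) that includes 1. The muscle list's sum leans on Eno3, which held 14510 of its 43150 counts in the inhibitor library and had a ratio of 1.38. Per count of the muscle gene Ckm alone, the ratio was 0.693 (0.556 to 0.870) for Cox8b and 0.763 (0.569 to 1.04) for Fabp3. For Cox7a1 it was 0.353 (0.262 to 0.480). Whether a shared gene exceeded muscle thus depended on the reference genes. Ucp1 was 61.6 times as frequent per muscle count (26.3 to 190), while Adrb3 and Prdm16, not classed as shared, had ratios of 0.977 (0.871 to 1.10) and 0.739 (0.404 to 1.43), as near to 1 as those of the shared genes. The values per count do not depend on how the libraries are scaled.

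**Figure D4:**
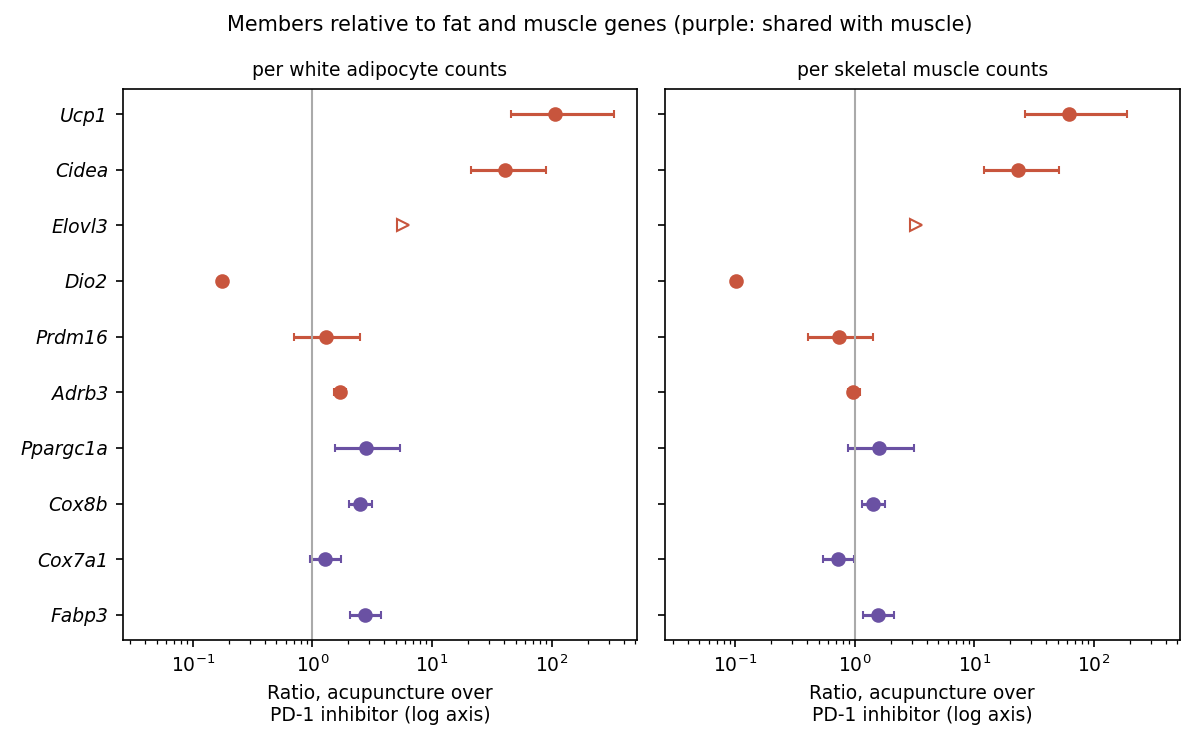
Ratio between the libraries (log axis, acupuncture over PD-1 inhibitor) of each member's counts per count of the white adipocyte list (left) and of the skeletal muscle list (right), with the conditional exact 95% interval as bars; open triangles are the ratios of Elovl3 against the floor of 3 counts. Ucp1 and Cidea lie far to the right of 1 in both panels, at 108 and 40.6 on the left, while the 4 genes shared with muscle (purple) lie between 0.727 and 1.59 on the right, where Adrb3 and Prdm16 are at 0.977 and 0.739.

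The genes of most like ratio were taken from 13902 genes with at least 100 combined counts. With 2 libraries, likeness is only closeness of the log2 ratio. Ucp1 was second, after the mucin-like Glycam1 (4 and 4923 counts, a log2 ratio of 10.27). The next 5 were Fcmr (7.99), Ccl21a (7.88), Ccl19 (7.08), Cidea (6.91) and Marco (6.76), a receptor for IgM, a pair of chemokines, a member of the present set and a macrophage scavenger receptor. The count of Ccl21a is uncertain, because close copies of this gene exist in the mouse genome. Around Cox8b, in place 113, the nearest 5 on either side lay within 0.05 of its log2 ratio of 3.20. They were Lax1, Colq, Lctl, Cys1 and Ubd above it and Jph1, Mlip, Myom2, Pla2g4e and Lmod3 below it. Several of them, Jph1, Myom2 and Lmod3 among others, are known as genes of striated muscle.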

How the data were processed

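The deposited table gives unnormalized counts of reads for each gene symbol in each of the 2 libraries. Libraries were made from total RNA with a kit for messenger RNA, per the labels' protocols, and the builds GRCm39 and mm39 are named in the submitters' processing notes. How reads were aligned and counted, and whether strand was used, is not given in the sources used here. Without strand, reads of overlapping antisense genes cannot be told apart. Every line of the table names a gene. Library sizes were scaled by edgeR's TMM method (version 4.0.16, under R 4.3.3) over the 18687 tested genes, with factors of 0.966 for the inhibitor library and 1.04 for the acupuncture library. Intervals are exact Clopper-Pearson (ratios), exact Poisson (levels) or conditional exact (ratios within libraries), all at 95%. The ratio calculation was tested on simulated data.

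The members and gene lists were chosen with earlier results of these data known. Named genes are all members and their families, and from each other list up to 3 by abundance and 2 by size of ratio, with the 5 genes on either side of Ucp1 and of Cox8b in order of ratio. One gene of the lists is not reported here, and the list counts leave it out. Others given with values are named to show how a list is made up. Promoters come from RefSeq on GRCm38.p6, and 6 of 7 windows were found to run into a GENCODE transcript of the gene, the exception being Dio2. Python 3.11.15 with scipy 1.17.1 was used. Prior counts, count minimums, a 4-fold limit, calls without the interval and 7 other scalings were tried as alternatives.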

Additional observations from a re-analysis of the deposited data

How the results depend on the processing

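Using total counts, upper-quartile factors, DESeq2 1.42.0 size factors or totals without the 10 most abundant genes as library sizes left 9 members higher and none lower, and the log2 ratio of Ucp1 between 8.07 and 8.18 and of Dio2 between -0.60 and -0.48. The median over all tested genes moved to 0.10 with total counts and to 0.10 without the most abundant genes. Setting the white adipocyte median to 0 gave 6 members higher, 1 lower and a median of 1.15 over the members, with Prdm16 (0.14), Adrb3 (0.56) and Cox7a1 (0.13) no longer called, and setting the skeletal muscle median to 0 gave 3 higher, 1 lower and a median of 0.44. Under the latter Prdm16 (-0.54), Adrb3 (-0.17) and Cox7a1 (-0.59) turned negative. The median over the members was 3.72 without the genes shared with muscle, and the summed counts gave 1.63. With a minimum of 100 counts 6 members were higher, since 3 had too few counts to be called, and 1055 genes were higher and 500 lower, and with a 4-fold limit 678 and 262. No paired analysis was possible because each group has 1 library. Counts of 0, 5, 9, 13 and 15 in the first library limit the ratios of Elovl3, Ucp1, Cidea, Ppargc1a and Prdm16, and no spread between animals could be estimated.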
